A study of Mus musculus with 4 samples.

Results

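Heat shock proteins and their DnaJ partners are the chaperones that fold, refold and shuttle proteins in every compartment of the cell. They were examined here in ATAC-seq peak lists, in which the Tn5 transposase marks accessible DNA. The genes were all protein-coding mouse genes whose symbol begins Hspa, Hspb, Hspd, Hspe, Hsph, Hsp90, Dnaja, Dnajb or Dnajc. These were 74 of the 21631 protein-coding genes on chromosomes 1 to 19 and X. By type they were 11 Hsp70, 3 Hsp110, 3 Hsp90, 2 chaperonin, 8 small heat shock protein and 45 DnaJ genes. The symbol rule also took 2 genes named for binding heat shock proteins, Hspbp1 and Hspbap1. A gene-end peak is a peak that reaches within 1 kb of either end of a gene.

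The cells were CD8+ lymphocytes of the Balb/c strain, which the series title calls tumour-infiltrating. There were 4 libraries, 1 for each condition: unstimulated untreated, unstimulated phenelzine, stimulated untreated and stimulated phenelzine. Stimulated cells received the phorbol ester PMA (1 mg/mL in the labels) and the calcium ionophore ionomycin (10 mM in the labels) for 2 h. Phenelzine, an antidepressant that blocks monoamine oxidases, is also known to block LSD1, a related enzyme that demethylates histones. Not given in the sources used here are its dose and duration, the tumour, the age of the mice and the number of mice behind a library. With 1 library per condition and no replicates, no test between conditions was made. Every difference below compares libraries, and each library enters 2 of the 4 comparisons.

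The lists held 6519 (unstimulated untreated), 7929 (unstimulated phenelzine), 10405 (stimulated untreated) and 9322 (stimulated phenelzine) peaks on the chromosomes used. Read totals were not used here. Peak names carry the tag less120, whose meaning is not stated. If it is a limit on fragment length, peaks and pileups describe short fragments only. The background pileup implied by the lists was 0.392, 0.471, 0.493 and 0.489 fragments in the same order, so the unstimulated untreated library was the shallowest by this measure. The most frequent peak in each list corresponded to a pileup of 5 fragments. On that scale the peaks of chaperone genes had pileups from 4.43 to 12.9 with a median of 6.97, if the local background equalled that of the list. A peak present in 1 list and missing from another can therefore rest on few fragments. Of the T cell markers Cd3d, Cd3e, Cd3g, Cd2, Cd5 and Lck, gene-end peaks were found at Cd3d and Cd5 only, and none at Cd8a or Cd8b1. None of the 17 markers of B cells, myeloid cells, CD4 T cells, NK cells, epithelium, stroma or endothelium had one, so gene ends did not mark the cell type in these lists.

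Hsp70 proteins bind unfolded stretches of polypeptide and release them in a cycle driven by ATP. DnaJ proteins deliver clients and trigger the ATP step, and Hsp110 proteins exchange the nucleotide. Hsp90 matures kinases and receptors, chaperonins enclose a client in a chamber, and small heat shock proteins hold unfolded proteins without ATP. Heat shock factor binds repeats of the triplet GAA in alternating orientation in the promoters of inducible chaperones. Chaperones of the endoplasmic reticulum (ER) are driven instead by the unfolded protein response, through an element made of CCAAT, a spacer of 9 bases and CCACG. Constitutive members serve every growing cell, including T cells that enlarge and divide after activation.

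Promoter sequence was taken from the RefSeq promoter table (build GRCm38.p6, the assembly called mm10 in the submitters' notes). It spans 250 bases before to 50 after each start site, and 60 of the 74 genes matched. The sequences below show how promoters that carry a stress element looked where accessible DNA lay over the start site. All 6 start sites lay under a peak in at least 1 list. They are written 5′ to 3′ on the strand of the gene. In the first 3, capitals mark the ER stress response element on either strand. They are Hspa5 (chr2:34771840-34772139, plus strand), Hsp90b1 (chr10:86705395-86705694, minus strand) and Dnajc3 (chr14:118937682-118937981, plus strand).
Hspa5: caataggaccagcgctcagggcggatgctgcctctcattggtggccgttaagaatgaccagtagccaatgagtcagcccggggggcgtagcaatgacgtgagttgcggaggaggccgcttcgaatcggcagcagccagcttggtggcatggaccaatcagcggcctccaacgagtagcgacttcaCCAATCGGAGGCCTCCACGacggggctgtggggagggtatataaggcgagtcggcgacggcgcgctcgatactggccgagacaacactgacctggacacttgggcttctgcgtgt
Hsp90b1: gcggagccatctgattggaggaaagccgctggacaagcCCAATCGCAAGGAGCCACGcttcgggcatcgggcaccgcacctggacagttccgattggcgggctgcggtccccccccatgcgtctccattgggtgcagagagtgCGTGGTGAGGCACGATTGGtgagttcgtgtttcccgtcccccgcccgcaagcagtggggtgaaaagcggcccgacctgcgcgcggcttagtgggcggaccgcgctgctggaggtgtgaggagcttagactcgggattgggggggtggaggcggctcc
Dnajc3: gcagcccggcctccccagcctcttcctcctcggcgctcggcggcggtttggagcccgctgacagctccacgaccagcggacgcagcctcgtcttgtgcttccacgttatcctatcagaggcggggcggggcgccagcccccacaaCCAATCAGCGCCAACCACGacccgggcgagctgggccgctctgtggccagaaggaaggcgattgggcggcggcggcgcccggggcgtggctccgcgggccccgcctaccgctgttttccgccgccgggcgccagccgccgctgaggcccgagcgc

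In the next 3, capitals mark heat shock pairs, that is GAANNTTC or TTCNNGAA, 2 triplets facing in or out. They are Hspe1 (chr1:55087898-55088197, plus strand), Hsph1 (chr5:149636266-149636565, minus strand) and Dnaja1 (chr4:40722218-40722517, plus strand).
Hspe1: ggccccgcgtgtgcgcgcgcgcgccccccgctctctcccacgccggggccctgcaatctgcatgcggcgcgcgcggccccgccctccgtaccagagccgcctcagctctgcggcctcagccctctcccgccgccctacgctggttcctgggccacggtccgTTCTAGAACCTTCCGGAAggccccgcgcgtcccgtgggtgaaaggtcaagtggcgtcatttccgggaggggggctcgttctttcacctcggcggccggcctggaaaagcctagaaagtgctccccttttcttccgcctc
Hsph1: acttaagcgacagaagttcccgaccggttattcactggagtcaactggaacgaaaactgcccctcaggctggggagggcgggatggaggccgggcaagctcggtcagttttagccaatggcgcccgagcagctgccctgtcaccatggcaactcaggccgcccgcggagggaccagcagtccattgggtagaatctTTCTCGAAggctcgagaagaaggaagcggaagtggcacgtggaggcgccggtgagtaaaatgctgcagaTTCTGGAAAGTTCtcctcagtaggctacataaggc
Dnaja1: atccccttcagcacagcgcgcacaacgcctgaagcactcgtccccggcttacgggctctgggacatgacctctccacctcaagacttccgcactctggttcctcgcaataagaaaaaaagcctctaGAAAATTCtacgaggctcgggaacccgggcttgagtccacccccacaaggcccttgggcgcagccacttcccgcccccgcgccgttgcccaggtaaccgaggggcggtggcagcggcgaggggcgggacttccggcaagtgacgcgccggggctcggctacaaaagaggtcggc

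For contrast, the promoter of the heat-inducible gene Hspa1a (chr17:34972107-34972406, minus strand) carried 1 heat shock pair, also in capitals, and no list had a peak there. It was chosen for printing after its values were seen.
Hspa1a: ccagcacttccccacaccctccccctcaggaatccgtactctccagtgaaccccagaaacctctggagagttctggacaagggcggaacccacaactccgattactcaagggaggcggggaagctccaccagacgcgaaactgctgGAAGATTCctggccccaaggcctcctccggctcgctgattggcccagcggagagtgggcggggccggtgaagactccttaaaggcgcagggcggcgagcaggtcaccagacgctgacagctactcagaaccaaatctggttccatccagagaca

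Chaperone genes were well represented among genes with accessible ends. A gene-end peak was found at 34 of 74 in the unstimulated untreated list (45.9%, exact 95% binomial interval 34.3 to 57.9). The unstimulated phenelzine list had 39 (52.7%, 40.7 to 64.4). The stimulated untreated list had 44 (59.5%, 47.4 to 70.7) and the stimulated phenelzine list 42 (56.8%, 44.7 to 68.2). Among all protein-coding genes the shares were 23.0%, 25.6%, 29.3% and 27.4%. The share of chaperone genes thus lay near double the background in each list, and it followed the same order of lists as the background did. The intervals cover counting error only. At least 1 list held a peak for 48 chaperone genes (64.9%) against 34.9% of all genes, and all 4 lists did for 29 (39.2%) against 17.7%. The bar plot of shares by list shows both sets side by side.

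**Figure D1:**
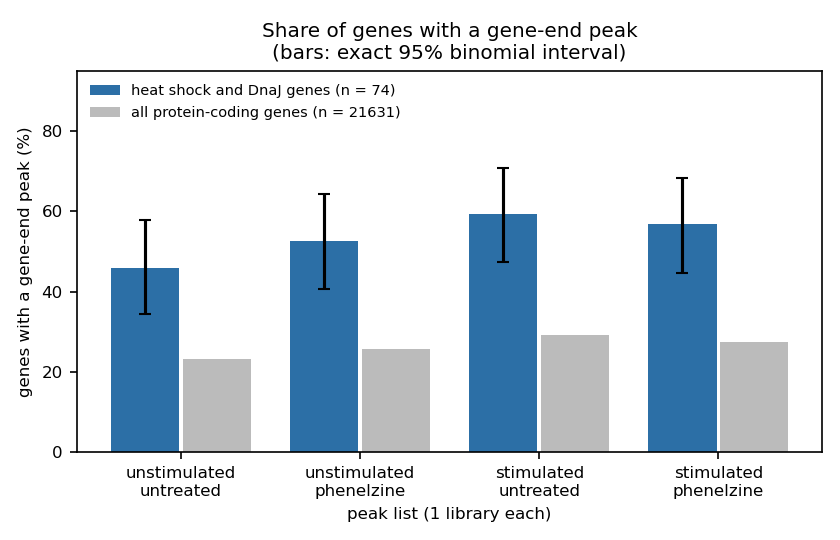
Share of genes with a gene-end peak (y axis, percent) in each of the 4 peak lists (x axis), for the 74 heat shock and DnaJ genes (blue) and all 21631 protein-coding genes (grey). Blue bars run from 45.9% to 59.5% and grey bars from 23.0% to 29.3%, and the error bars are exact 95% binomial intervals that cover counting error only.

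The 48 genes stood on 50 distinct regions after peaks of the 4 lists were merged. Hspd1 and Hspe1, which lie head to head, shared 1 region. Hsp90ab1, Dnajb12 and Hspbap1 each had 2. All 4 lists held 28 of the 50 regions, 16 were in 2 or 3 lists, and 6 were in 1 list alone. The same split of all 15237 merged regions is not given here, so these counts have no background beside them. At 14 of the 48 genes the peak also lay within 1 kb of an end of a neighbour outside the group, such as Bud23 at Dnajc30 and Cdnf at Hspa14. Accessibility there cannot be assigned to the chaperone gene alone. The matching share over all genes with a gene-end peak is not given here, so the 14 have no background beside them.

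The major Hsp70 of each compartment was accessible in every library. Hspa8 encodes the constitutive Hsp70 of the cytosol. Its peak had −log10 q 7.18 in unstimulated untreated, 6.73 in unstimulated phenelzine, 7.86 in stimulated untreated cells and 7.12 in stimulated phenelzine cells. Within each list it lay above at least 93.4% of peaks, so it was a strong peak in all 4. Hspa5 encodes the ER Hsp70 known as BiP, the master chaperone of the unfolded protein response. Its −log10 q was 7.11, 9.06, 9.76 and 5.71 in the same order of lists, with fold enrichment of 7.09, 7.48, 7.58 and 6.03 over local background. Each of the Hspa5 peaks covered the start site of the promoter printed above. Hspa9 encodes the mitochondrial Hsp70, mortalin. Its −log10 q was 9.76, 4.67, 7.44 and 3.24, and the peak stood above 98.1%, 81.8%, 92.1% and 61.8% of its list. Hspa9 was thus placed lower in each phenelzine list than in the untreated list of the same stimulation state. A −log10 q belongs to its own list, so these ranks do not measure a change.

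Of the other Hsp70 genes, Hspa14, whose product works at the ribosome, had the strongest peak of the whole group, with −log10 q 12.4 and fold 9.32 in stimulated untreated cells. Its −log10 q elsewhere was 5.40 in unstimulated untreated, 5.82 in unstimulated phenelzine and 9.35 in stimulated phenelzine cells. Both stimulated lists placed it above 98% of their peaks (98.9% and 98.1%), and the unstimulated lists above 87.0% and 90.4%. Hspa2, best known from the germ line, was present in all 4 lists, with −log10 q 1.52, 3.44, 8.43 and 5.40. It lay above 5.83% of peaks in the unstimulated untreated list and 94.9% in the stimulated untreated list. Hspa13, which encodes a microsomal Hsp70, stayed between 2.68 and 3.27. Hspa12a, a distant relative, had a peak in unstimulated phenelzine (2.21) and stimulated untreated cells (2.47) only. Hspa12b, Hspa1l, Hspa1a and Hspa1b had no gene-end peak in any list.

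Hspa1a and Hspa1b encode the strictly stress-inducible Hsp70, and neither had a gene-end peak. The inducible genes Hsp90aa1, Hsph1 and Dnajb1 had one in all 4 lists. The RefSeq promoters of Hspa1a and Hspa1b were identical at 296 of 300 aligned positions (98.7%). Reads from such near-identical copies may be dropped or split during mapping, and the handling of such reads is not given in the sources used here. The part of mapping in this absence was not tested. Hspb1, the main heat-inducible small heat shock protein gene, had no peak within 20 kb of its body in any list.

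All 3 Hsp110 genes had gene-end peaks. Hsph1, an inducible nucleotide exchange factor of Hsp70, had −log10 q 3.83 in unstimulated untreated, 6.19 in unstimulated phenelzine, 3.95 in stimulated untreated cells and 4.33 in stimulated phenelzine cells. Its peak covered a start site in each list. Hspa4 had 4.09, 3.84, 4.77 and 2.57. Hspa4l had 2.46 in unstimulated untreated, 2.71 in stimulated untreated cells and 2.34 in stimulated phenelzine cells, and no gene-end peak in unstimulated phenelzine cells.

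Hsp90aa1, which encodes the inducible cytosolic Hsp90, had the highest median −log10 q of the group, 8.74. Its values were 5.85 in unstimulated untreated, 10.6 in unstimulated phenelzine, 8.97 in stimulated untreated cells and 8.50 in stimulated phenelzine cells. Hsp90b1, the ER member known as Grp94, had 2.36, 4.44, 4.96 and 4.04, so the unstimulated untreated value was the lowest of the 4. Hsp90ab1, the constitutive cytosolic Hsp90, differed from both. It had no gene-end peak in unstimulated untreated cells. In unstimulated phenelzine cells a peak (−log10 q 2.96) lay 626 bp outside the gene. In stimulated untreated cells a peak of 4.36 lay just beyond the gene end and a second (2.74) lay 614 bp away. In stimulated phenelzine cells the near peak was present (2.04). The region next to the gene end, chr17:45573273-45573405, thus appeared in each stimulated list and in no unstimulated list. Within 20 kb of the gene the stimulated lists had 4 peaks each and the unstimulated lists 1 each. The NF-kB inhibitor gene Nfkbie lies in that stretch, and which gene these peaks belong to was not tested.

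The mitochondrial chaperonin genes Hspd1 (Hsp60) and Hspe1 (Hsp10) are transcribed away from each other from a shared promoter. Their common peak had −log10 q 3.81 in unstimulated untreated, 4.96 in unstimulated phenelzine, 5.06 in stimulated untreated cells and 3.84 in stimulated phenelzine cells. It covered the start site of both genes in each list, and the merged region, chr1:55087932-55088541, was 610 bp wide. This stretch includes the run of heat shock triplets in the Hspe1 promoter printed above.

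Most small heat shock protein genes had no gene-end peak in any list, as was so for 65.1% of all protein-coding genes. Hspb6 and Hspb11 of 8 had one, and both peaks were also at a neighbour (Proser3 and Lrrc42). Hspb11, whose product is also known as a ciliary transport protein, was weak in all 4 lists (1.83, 1.77, 2.01 and 1.35). Hspb6 had 2.08 in unstimulated untreated, 3.78 in unstimulated phenelzine and 5.43 in stimulated untreated cells and none in stimulated phenelzine cells. Hspb1, Hspb2, Hspb3, Hspb7, Hspb8 and Hspb9 had none. Several of these are known from muscle or testis, and whether this bears on the absence was not tested.

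Among class A DnaJ genes, which encode the general partners of Hsp70, 3 of 4 had gene-end peaks. Dnaja1, the main cytosolic partner, had −log10 q 2.92, 3.21, 3.93 and 2.37 in the usual order. Dnaja3, the mitochondrial partner of Hspa9, was stronger at 6.11, 3.79, 7.57 and 5.58. Dnaja2 had a single weak peak in stimulated untreated cells (1.74), and Dnaja4 had none.

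Of the class B genes 8 of 13 had peaks, and Dnajb9 and Dnajb11 had the highest median −log10 q. Dnajb9, an inducible ER cofactor of BiP, had −log10 q 6.33 in unstimulated untreated, 6.72 in unstimulated phenelzine, 8.60 in stimulated untreated cells and 7.96 in stimulated phenelzine cells. All 4 values lay above 91.9% of their own list or higher. Dnajb11, another ER cofactor, had 4.53, 6.03, 6.80 and 7.95. Dnajb1, the stress-inducible Hsp40 of the cytosol, had 3.44, 4.62, 4.92 and 5.22, with the peak over the start site each time. Dnajb5 ranged from 2.70 to 5.77. Dnajb6, which keeps polyglutamine proteins soluble, lacked a peak in unstimulated phenelzine cells, and Dnajb4 lacked one in unstimulated untreated cells. Dnajb2 was held by 1 list. Dnajb12, of the ER membrane, was held by 2, with peaks at different places. Dnajb3, Dnajb7, Dnajb8, Dnajb13 and Dnajb14, another ER membrane gene, had none.

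Class C, the most diverse, had peaks at 18 of 28 genes, and 9 of these were in all 4 lists. Dnajc30, a short gene whose product is mitochondrial and whose peak is shared with Bud23, had −log10 q 7.98, 4.00, 9.44 and 8.22. Dnajc3, the ER co-chaperone p58IPK, had 2.72 in unstimulated untreated, 3.84 in unstimulated phenelzine, 6.27 in stimulated untreated cells and 5.36 in stimulated phenelzine cells. Both stimulated values of Dnajc3 ranked above 86.7% of their list or higher, and the unstimulated untreated value above 44.0%. Dnajc11, of the mitochondrial membrane, had 2.27, 2.43, 6.38 and 4.42. Dnajc16 had 5.76, 3.82, 4.84 and 4.57, and Dnajc13, an endosomal DnaJ gene, 2.55, 4.05, 4.65 and 5.32. Dnajc9, Dnajc10, Dnajc14 and Dnajc24 were also in all 4 lists, with values from 1.24 to 4.60. Dnajc1, Dnajc5, Dnajc5g, Dnajc6, Dnajc7, Dnajc15, Dnajc18, Dnajc22, Dnajc25 and Dnajc28 had none. The map of −log10 q by gene and list shows all 48 genes with a peak.

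**Figure D2:**
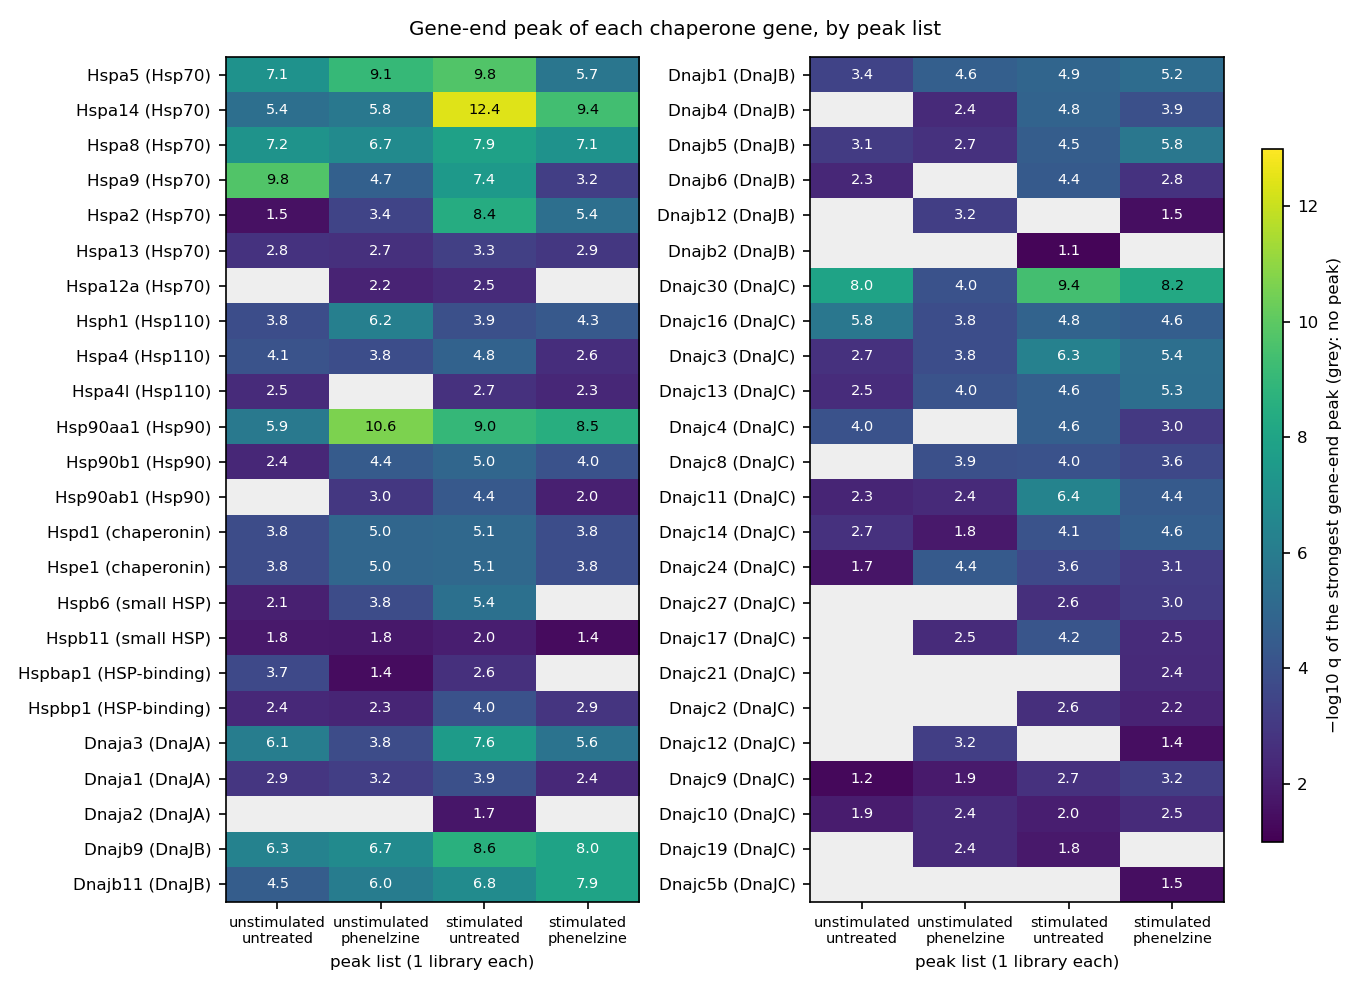
−log10 q of the strongest gene-end peak of each of the 48 chaperone genes with a peak (rows, family in brackets) in each of the 4 lists (columns), with grey for no peak. The Hsp70 genes Hspa5, Hspa8 and Hspa14, with Hsp90aa1, Dnajb9 and Dnajc30, have the highest medians over the lists (7.15 to 8.74). Grey cells are most frequent in the unstimulated untreated column (14 of 48, or 29.2%, against 33.9% of all genes with a peak).

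At the edge of the 1 kb window, the farthest inside were Hspa4l, with peaks between 627 and 814 bp from the gene, and Dnajc5b, with 1 peak (1.46) at 741 bp in stimulated phenelzine cells. Just outside lay Dnajc1, with a peak in each list at 1152 to 1183 bp and −log10 q from 1.54 to 2.74. Dnajc5, the gene of cysteine string protein, had one in each list at 1427 to 1469 bp, with values from 4.16 to 5.98, and a nearer one at 1120 bp (2.70) in unstimulated phenelzine cells. Of the 26 genes without a gene-end peak, 18 had some peak within 20 kb of the gene body and 8 had none. The matching share over all genes is not given here, so the 18 have no background beside them.

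The promoter table gave strand and start sites for 38 of the 48 genes with a peak. Of their 128 gene-end peaks, 112 (87.5%) had a centre within 250 bp of a start site, and 78 (60.9%) covered one. For all genes the shares were 81.0% and 55.4% of 19945 pairs of gene and peak. The window at the gene ends itself favours such positions. With negative values upstream, the median centre was at -92 bp in unstimulated untreated, -86 bp in unstimulated phenelzine, -62 bp in stimulated untreated cells and -92 bp in stimulated phenelzine cells. No peak of these chaperone genes was centred more than 1 kb from a start, against 7.90% over all genes. The farthest were 2 Hspbap1 peaks at -868 and -820 bp. The strip plot of peak positions shows the 4 lists overlaid on the start site.

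**Figure D3:**
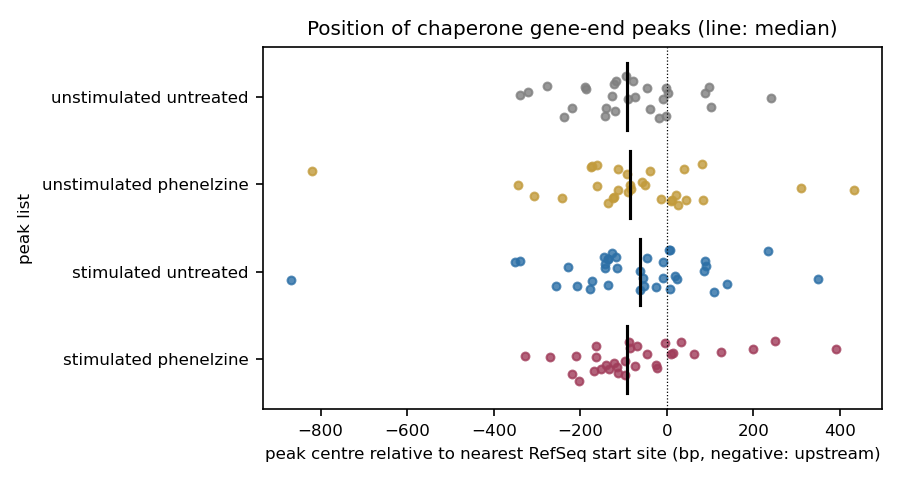
Distance of each gene-end peak's centre from the nearest RefSeq start site (x axis, bp, negative is upstream) for the 38 chaperone genes in the promoter table, by peak list (y axis, 1 point per peak, black line at the median). Medians lie between -92 and -62 bp in every list, and the outlying points at -868 and -820 bp belong to Hspbap1.

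Stress elements were searched in the same promoters, on both strands. A heat shock pair (GAANNTTC or TTCNNGAA, each its own reverse complement) was present in the promoters of 16 of 60 chaperone genes (26.7%) and 15.9% of all 17274 genes in the table. It was found at 9 of the 38 genes with a gene-end peak and 7 of the 22 without. The 7 were Dnaja4, Dnajc5g, Hspa1a, Hspa1b, Hspb1, Hspb3 and Hspb8. Among the 9, the promoter with the pair was overlapped by no gene-end peak at Dnajb4, Dnajc27 and Hspb6. The longer element of 3 triplets, in which GAANNTTC and TTCNNGAA overlap by 3 letters, was in the promoters of 4 chaperone genes (6.67%) and 0.602% of all. These were Hspd1, Hspe1, Hsph1 and Dnajb6, and all 4 genes had gene-end peaks. Of the 60 chaperone genes searched, 38 had one. The share with a peak among all genes carrying the element is not given here, so a link was not tested. Because Hspd1 and Hspe1 lie head to head, their windows overlap and hold the same element.

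The ER stress response element was in the promoters of 3 of 60 chaperone genes and 0.168% of all. These were Hspa5, Hsp90b1 and Dnajc3, and each had a gene-end peak in all 4 lists. So did 29 of all 74 chaperone genes. The matching share among all genes carrying this element is not given here, so a link was not tested. The Hsp90b1 promoter held 2 copies, on opposite strands. CCAAT on either strand, which is part of that element, was in 41.7% of chaperone genes and 42.7% of all. TGACGTCA, the cAMP response element, was found at Dnajc27 alone (1.67%, against 2.58% of all). TGAGTCA or TGACTCA, the AP-1 site, was found at Hspa5 alone (1.67% against 5.44%). A match is a string of letters in this window and does not show binding.

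The first comparison asked which chaperone genes had an accessible end after stimulation without phenelzine. A peak was in the stimulated list alone at 10 genes and in the unstimulated list alone at 0 (background 8.15% and 1.94% of all genes). The 10 were 13.5% of the 74, with an interval of 6.68 to 23.5. The count of 0 had an interval up to 4.86%. Both intervals cover counting error over genes only. Without replicate libraries they cannot show whether the difference between these lists departs from the background. By −log10 q in stimulated untreated cells the first 6 were Dnajb4 (4.83), Hsp90ab1 (4.36), Dnajc17 (4.16), Dnajc8 (4.02), Dnajc2 (2.63) and Dnajc27 (2.60). The peaks of Dnajb4, Dnajc17, Dnajc8 and Dnajc2 also lay at neighbours (Fubp1, Zfyve19, Atpif1 and Psmc2). No peak of Dnajb4, Dnajc17 or Dnajc27 covered a RefSeq start site of the gene in any list. Dnajc8 is a splicing-associated gene, and Dnajc2 encodes a partner of the ribosome-bound Hsp70 Hspa14. The remaining 4 were Hspa12a, Dnajc19, Dnaja2 and Dnajb2. Both lists held 34. The stimulated list was the longer one. With each list limited to its top peaks, as many as the shortest list holds, the counts were 7 and 2. The 2 were Dnajc10 and Hspb11. These counts were 9.46% and 2.70% of chaperone genes, against 5.0% and 4.31% of all genes.

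The same question in phenelzine-treated cells gave 7 genes in the stimulated list alone (9.46%, background 5.54%). The unstimulated list alone had 4 (5.41%, background 3.73%). The first set had Dnajc27 (3.03), Dnajc4 (3.0), Dnajb6 (2.75), Dnajc21 (2.42), Hspa4l (2.34), Dnajc2 (2.19) and Dnajc5b (1.46). The second had Hspb6 (3.78), Dnajc19 (2.42), Hspa12a (2.21) and Hspbap1 (1.39). Dnajc2 and Dnajc27, a DnaJ gene with a Rab-like GTPase domain, were in both stimulated lists and no unstimulated list, as were 1.69% of all genes. The Dnajc2 region also lies at Psmc2, which encodes a proteasome subunit. With lists of equal size the counts were 6 and 6 (8.11% each, against 4.69% and 4.58% of all genes). With start sites only they were 4 and 4 of 60 genes (6.67% each, against 5.95% and 3.91%).

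Phenelzine was next compared in unstimulated cells. The phenelzine list alone had peaks at 8 genes (10.8%, background 5.9%) and the untreated list alone at 3 (4.05%, background 3.37%). The leading genes with phenelzine were Dnajc8 (3.92), Dnajc12 (3.23), Dnajb12 (3.21), Hsp90ab1 (2.96), Dnajc17 (2.47) and Dnajb4 (2.42). Dnajc19, whose product serves protein import into mitochondria, and Hspa12a completed the set. Without phenelzine the genes were Dnajc4 (4.03), Hspa4l (2.46) and Dnajb6 (2.34). The peaks of Dnajc8, Dnajc17 and Dnajb4 also lay at the neighbours named above, and that of Dnajc4 at Nudt22. Of the 8 genes, Dnajb4, Dnajc8, Dnajc17 and Hsp90ab1 also had a peak in both stimulated lists, so they were missing from unstimulated untreated cells alone. That applied to 4 chaperone genes (5.41%) and 2.82% of all genes.

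In stimulated cells phenelzine gave 4 genes in the treated list alone (5.41%, background 3.4%). The untreated list alone had 6 (8.11%, background 5.27%). The 4 were Dnajc21 (2.42), Dnajb12 (1.46), Dnajc5b (1.46) and Dnajc12 (1.42). The 6 were Hspb6 (5.43), Hspbap1 (2.65), Hspa12a (2.47), Dnajc19 (1.82), Dnaja2 (1.74) and Dnajb2 (1.15). Except for Hspb6 these values lay between 1.15 and 2.65, near the lower limit of the lists, about 1. With lists of equal size the counts were 2 (Dnajc10 and Dnajc21) and 3 (Hspa12a, Hspb6 and Hspbap1). These were 2.70% and 4.05%, against 4.54% and 4.91% of all genes. Dnajb12 and Dnajc12 had peaks in both phenelzine lists and in neither untreated list, as did 0.735% of all genes. Dnajc19 and Hspa12a had peaks in unstimulated phenelzine and stimulated untreated cells only, a pattern of 2 chaperone genes and 1.09% of all genes. The 2 peaks of Dnajb12 did not overlap, and those of Dnajc12 did. Dnajb12 and Dnajc12 both had a higher −log10 q in the unstimulated list.

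Genes held by fewer lists had weaker peaks where they were held. The median −log10 q was 1.60 for the 4 chaperone genes in 1 list, 2.34 for the 6 in 2 lists, 2.96 for the 9 in 3 lists and 4.40 for the 29 in all 4. Over all genes the same medians were 2.18, 2.58, 2.86 and 4.19. As shares, 5.41%, 8.11% and 12.2% of chaperone genes were in 1, 2 and 3 lists, against 6.17%, 4.76% and 6.25% of all genes. No chaperone gene missing from a list had a median over 4.03 in the others. Of the 48 genes, 14 were missing from the unstimulated untreated list, 9 from unstimulated phenelzine, 4 from stimulated untreated and 6 from stimulated phenelzine. These were 29.2%, 18.8%, 8.33% and 12.5%. Of all genes with a peak in any list, 33.9%, 26.7%, 16.1% and 21.5% were missing, in the same order of lists. Background pileup was lowest in the first of these lists, and its part in the counts was not tested.

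**Figure D4:**
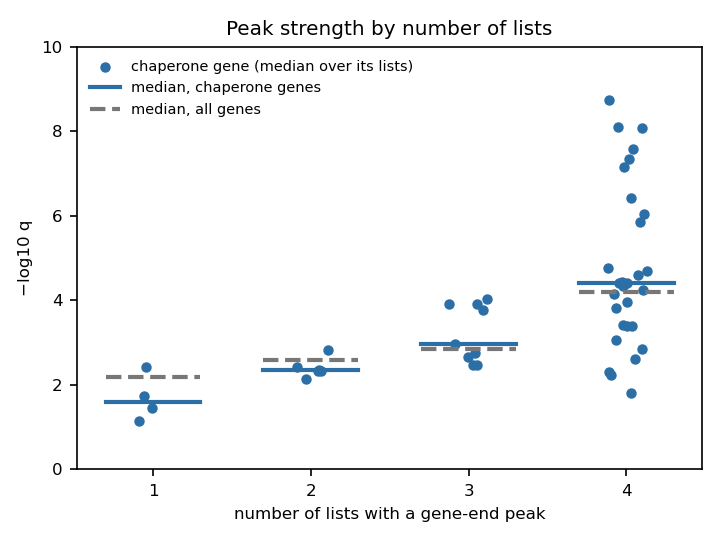
Median −log10 q over the lists that held a gene-end peak (y axis) against the number of such lists (x axis), 1 blue point per chaperone gene with horizontal jitter. Blue lines are medians of chaperone genes (1.60, 2.34, 2.96 and 4.40) and grey dashed lines those of all genes (2.18, 2.58, 2.86 and 4.19).

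Other folding genes were described from lists of 48 genes. Gene-end peaks were present at 34 in unstimulated untreated, 38 in unstimulated phenelzine, 41 in stimulated untreated cells and 41 in stimulated phenelzine cells, and at 31 in all 4. The shares were 70.8%, 79.2%, 85.4% and 85.4%, and 64.6% in all 4. Of all protein-coding genes 23.0%, 25.6%, 29.3% and 27.4% had one, and 17.7% in all 4. The cytosolic chaperonin TRiC had peaks at 8 of 8 subunit genes in every list, with −log10 q from 2.36 to 9.57. Prefoldin, which hands unfolded actin and tubulin to TRiC, had 5 of 6 in any list and 0 in all 4. Heat shock factors and cochaperones had 16 of 18 in any list and 11 in all 4. Hsf1, the heat shock factor of the stress response, was in all 4 (5.29, 4.30, 7.79 and 3.08), while Hsf2 had none. ER folding and unfolded protein response genes had 13 of 13 in any list and 10 in all 4. The 3 missing from unstimulated untreated cells were Atf6, Pdia6 and Ern1. In untreated cells 8 of the 48 were in the stimulated list alone and 1, Fkbp4, in the unstimulated list alone. These were 16.7% and 2.08%, against 8.15% and 1.94% of all genes. With phenelzine the numbers were 5 (10.4%) and 2 (4.17%), against 5.54% and 3.73%. Comparing phenelzine with untreated gave 6 (12.5%) and 2 (4.17%) in unstimulated cells, against 5.9% and 3.37%. In stimulated cells it gave 2 and 2 (4.17% each), against 3.4% and 5.27%.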

How the data were processed

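ATAC-seq libraries of CD8+ cells were prepared with Tn5, 1 per condition. The tools named, per the submitters' processing notes, were MACS2, HOMER, Picard, Bowtie2 2.2.5 and Trimmomatic 0.33, with the build mm10. Not given in the sources used here are parameters, filters, the meaning of the tag less120 in the peak names and the handling of repeated sequence. The authors deposited 1 broad peak list per library. The deposited score equalled 10 times the −log10 q without its decimals in every peak, apart from the stimulated untreated list, where it did in 99.98%. The deposited fold enrichment is a ratio of pileup to local background, and the p-value and q-value columns as deposited are on the −log10 scale. They served to describe peaks and to order them inside their own list.

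From there, peaks on chromosomes 1 to 19 and X were matched to protein-coding genes of RefSeq (GRCm38.p6), by the 1 kb window at either gene end. Regions merge peaks that overlap by at least 1 bp. Background pileup was derived from the fold and −log10 p that occurred together most often in a list (107 to 190 peaks), with fold modelled as (pileup + 1) divided by (background + 1) and p by the upper tail of a Poisson distribution. Python with numpy 2.4.6, pandas 2.3.3 and scipy 1.17.1 was used. Shares have exact (Clopper-Pearson) 95% intervals. Peak matching and merging were tested on simulated data. The genes and lists were chosen with earlier results of these data known. Full values were given for 16 listed chaperones, the 10 others with the highest median −log10 q among genes in all 4 lists, and up to 6 genes per contrast and direction by −log10 q. Promoters printed were limited to such genes with a peak over a start site, with Hspa1a added. Alternatives were windows of 500 bp and 2 kb, the start site only, −log10 q of at least 3, lists of equal size, leaving out Hspbp1 and Hspbap1, and a stricter overlap. Setting each list aside was added after the data were seen.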

Additional observations from a re-analysis of the deposited data

Results flagged for a closer look

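Dnajc19 and Hspa12a were the chaperone genes whose gene-end peaks went opposite ways with stimulation in the 2 arms. Each had a peak in stimulated untreated cells and none in unstimulated untreated cells, while with phenelzine it had one in unstimulated cells and none in stimulated cells. For Dnajc19 the −log10 q was 2.42 in unstimulated phenelzine and 1.82 in stimulated untreated cells. For Hspa12a it was 2.21 and 2.47. With 1 library per condition the difference between the arms was not tested. These were 2 of 74 chaperone genes (2.70%), and 1.09% of all protein-coding genes had the same pattern. With lists of equal size Dnajc19 lost its peak in stimulated untreated cells and Hspa12a kept the pattern. With −log10 q of at least 3 neither gene had a gene-end peak in any list.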

How the results depend on the processing

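Of 95 recomputed counts, 82 stayed within 1.5 times the main count and 13 did not. The cause was not tested for any of them, though fewer peaks enter under a stricter −log10 q. With −log10 q of at least 3, gene-end peaks remained at 18 chaperone genes in unstimulated untreated, 25 in unstimulated phenelzine and 27 in stimulated phenelzine cells, and 14 genes had one in all 4 lists. These were 24.3%, 33.8%, 36.5% and 18.9%, against 14%, 14.9%, 16.9% and 7.79% of all genes. Under that limit stimulation in untreated cells gave 16 genes in the stimulated list alone and 1 (Hspbap1) in the unstimulated list alone, which is 21.6% against 8.52% of all genes and 1.35% against 2.35%. Phenelzine in stimulated cells gave 2 (Dnajc9 and Dnajc27) in the treated list alone, 2.70% against 3.44%. At equal list size, 2 genes (2.70%, against 4.31% of all genes) were in the unstimulated list alone in untreated cells. Phenelzine in stimulated cells had 2 in the treated list alone (2.70% against 4.54%) and 3 in the untreated list alone (4.05% against 4.91%). With the start site only, 14 of 74 genes had no promoter entry. Of the other 60, 4 were in the stimulated list alone in phenelzine-treated cells (6.67%, against 5.95% of all genes). The treated list alone in stimulated cells had 2 (3.33% against 3.54%). With a window of 2 kb the unstimulated list alone in untreated cells had 1 (Dnajb14), which is 1.35% against 1.99% of all genes. Setting each list aside in turn left between 29 and 33 genes in all remaining lists. No paired analysis was possible because each condition has 1 library and the labels give no replicate numbers. The peaks of chaperone genes had a median pileup of 6.97 fragments, and the part of depth in any absence was not tested.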
